A study of Mus musculus with 4 samples.

Results

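The *Zbtb* family was studied in cervical motor neurons (MNs) made from *Patz1* knockout (KO) cells, PATZ1 being a member of the same protein family. Its genes were taken by symbol, as *Zbtb* followed by a number and, where present, the letter a or b, with *Patz1* itself left out. Of 23420 gene symbols in the data, 39 matched, and 38 of them had at least 10 counts in at least 2 libraries and were tested. RNA-seq was done on 4 libraries, 2 from wild type (WT) MNs and 2 from *Patz1* KO MNs. Both genotypes come from E14, a mouse embryonic stem cell (mESC) line, and both were made into MNs by the same treatment, all-trans-retinoic acid at 1 μM and smoothened agonist at 0.5 μM from day 2. The *Patz1* KO cells carry a CRISPR/Cas9 edit at *Patz1*. The study made several clonal KO lines, and the labels do not say which line or lines the 2 libraries come from. Sample titles carry the word ESC, but the source and the cell type given for all 4 are MNs, and the counts show motor neuron genes.

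Zbtb proteins carry a BTB domain, also called POZ, near the N-terminus and C2H2 zinc fingers toward the C-terminus. The zinc fingers read DNA, and the BTB domain lets the proteins pair with themselves or with other BTB proteins and recruit co-repressors such as NCOR1 and BCOR. Many members repress their targets and set cell fates, above all in lymphocytes, blood and the developing nervous system. PATZ1 is itself known in T cells as MAZR, where it represses *Zbtb7b*, the gene of the CD4 lineage factor ThPOK. The question here is which relatives of PATZ1 had higher or lower counts in *Patz1* KO MNs.

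The total count per library went from 14769104 to 23881522, and the *Patz1* KO libraries were the deeper ones. *Patz1* checks the labels. It had 91.5 and 94.2 CPM (read counts scaled to library size with TMM) in WT and 47.6 and 42.5 CPM in *Patz1* KO. This is a log2 ratio of KO to WT of -1.04, with SE 0.095 (adjusted p = 9.93e-08, edgeR quasi-likelihood test and Benjamini-Hochberg method). The log2 ratio of KO to WT is called log2FC from here on, and adjusted p stands for this test and adjustment. *Patz1* transcripts were thus still counted in both KO libraries, and counts per gene do not show where the edit lies. By western blot, the study reports that the PATZ1 protein signal was lost in its KO mESC lines. Of 8 motor neuron markers, 7 were higher in *Patz1* KO, and their summed level was 599 to 643 CPM in WT and 939 to 1031 CPM in *Patz1* KO. For comparison, 24.0% of all genes tested were higher and 23.4% were lower at an adjusted p below 0.05. Of 7 endoderm markers, 5 were lower, with a sum of 59.6 to 63.9 CPM in WT and 10.3 to 12.3 CPM in *Patz1* KO. *Foxa2* alone had 28.0 and 28.4 CPM in WT and 5.15 and 5.96 CPM in *Patz1* KO, and *Afp* and *Sox7* were not called. Of 5 endothelial markers 3 were lower (9.80 to 11.6 against 3.51 to 5.65 CPM), of 4 astrocyte and oligodendrocyte markers tested 2 were higher (58.1 to 62.5 against 79.0 to 99.6 CPM for the list of 6), and of 4 pluripotency markers tested 1 was lower (6.84 to 8.30 against 5.32 to 6.43 CPM for the list of 5). The 6 lymphoid and myeloid markers summed to at most 0.715 CPM in any library, and *Cd3e* had no count, which allows up to 3 counts per library.

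Among the 38 *Zbtb* genes tested, 2 rose several-fold in *Patz1* KO MNs, *Zbtb4* by 4.46-fold and *Zbtb7b* by 3.12-fold, and *Zbtb16* fell 2.28-fold. *Zbtb17* and *Zbtb46* rose by less than 1.3-fold, and 10 further members fell by 1.18-fold to 1.68-fold. In all, 15 of 38 members (39.5%) had an adjusted p below 0.05 in edgeR's test, where 47.4% of the 14394 genes tested did. The 4 higher members were 10.5% of the family against 24.0% of all genes, and the 11 lower members were 28.9% against 23.4%. A change of at least 2-fold was called in 3 members (7.89%) and in 12.8% of all genes. In these bulk samples, fewer cells of a type and less RNA per cell cannot be told apart. The part that the marker shifts above have in the values of the members was not tested.

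**Figure D1:**
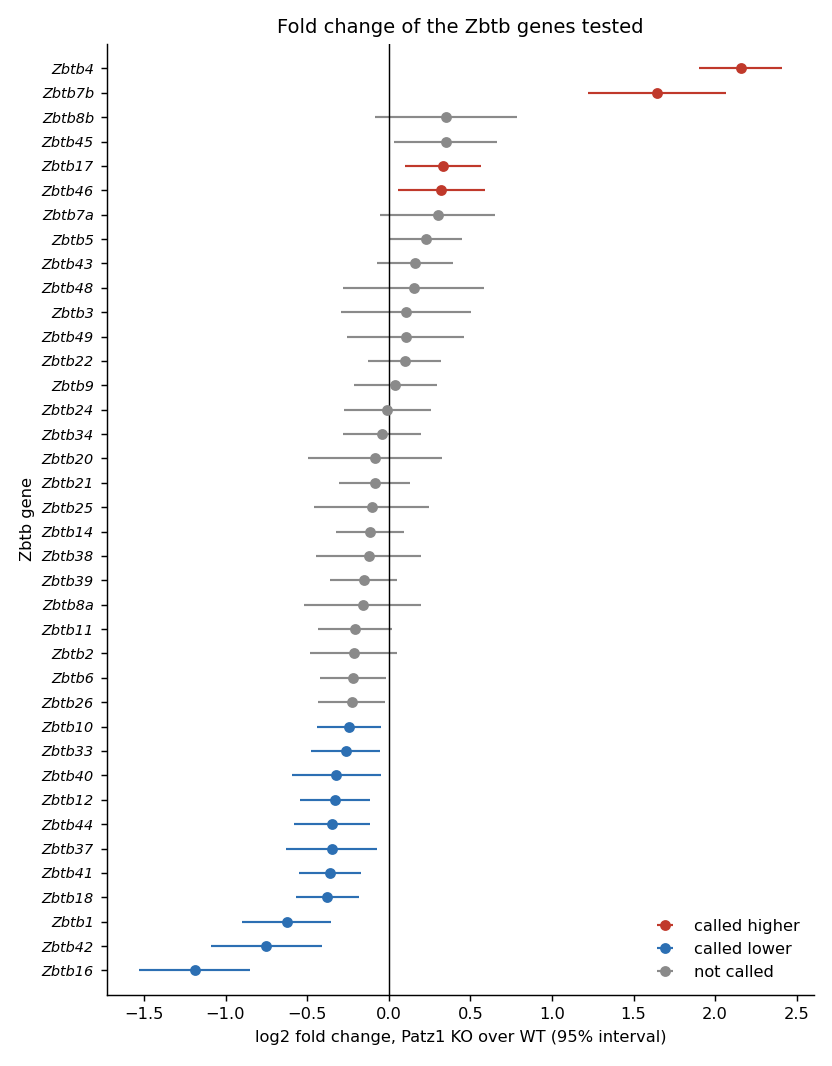
Log2FC of the 38 *Zbtb* genes tested, *Patz1* KO over WT, with 95% intervals from edgeR's fit (x axis, log2 units; y axis, genes in order of fold change; red, called higher; blue, called lower; grey, not called). *Zbtb4* at 2.16 and *Zbtb7b* at 1.64 stand to the right of the rest, and *Zbtb16* at -1.19 is the leftmost.

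Most differences within the family were small. The median log2FC of the 38 members was -0.11, against -0.0014 for all genes, and the median of its absolute value was 0.23, against 0.34. For 33 members the absolute log2FC was under 0.5, and 10 of these 33 were called. In 28 members (73.7%) the CPM of both KO libraries was above, or below, that of both WT libraries, 9 higher and 19 lower, where 73.9% of all genes did so. Every one of the 15 called members was among those 28, which is no separate support, since calls and separation rest on the same 4 libraries.

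**Figure D2:**
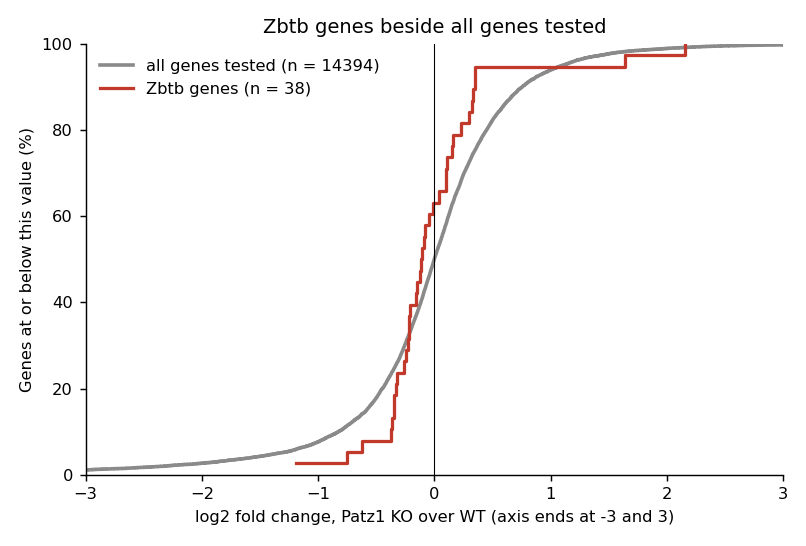
Cumulative share of genes (y axis, percent) by log2FC, *Patz1* KO over WT (x axis), for the 38 *Zbtb* genes (red) and all 14394 genes tested (grey). The *Zbtb* curve is the steeper near 0, with a median of -0.11, and 2 steps beyond 1.5 on the right are *Zbtb7b* and *Zbtb4*.

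*Zbtb4* encodes a repressor related to Kaiso that binds methylated CpG. It lies on the plus strand of chromosome 11 of GRCm38 (mm10), from 69765912 to 69784023. *Zbtb7b*, on the minus strand of chromosome 3 from 89377644 to 89394776, encodes ThPOK, which directs T cells to the CD4 lineage. The reference promoters of these 2 genes, from 250 bases before to 50 after the start in RefSeq on GRCm38.p6, are shown because they belong to the members that rose most. *Zbtb7b* has a second promoter in the reference, closer to the 3' end of the gene, with 0 matches to the word described next and 7 CpG dinucleotides, which is not printed. Capitals mark each match to GGGGAGGG, a G-rich word of the kind that PATZ1 and its relative MAZ are known to bind.
Zbtb4, chr11:69765662-69765961, plus strand: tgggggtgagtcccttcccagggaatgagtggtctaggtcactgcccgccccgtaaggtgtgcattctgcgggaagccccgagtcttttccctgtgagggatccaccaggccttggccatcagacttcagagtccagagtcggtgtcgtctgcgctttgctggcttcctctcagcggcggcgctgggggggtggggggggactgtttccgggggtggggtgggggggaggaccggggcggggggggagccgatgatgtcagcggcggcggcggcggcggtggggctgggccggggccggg
Zbtb7b, chr3:89393329-89393628, minus strand: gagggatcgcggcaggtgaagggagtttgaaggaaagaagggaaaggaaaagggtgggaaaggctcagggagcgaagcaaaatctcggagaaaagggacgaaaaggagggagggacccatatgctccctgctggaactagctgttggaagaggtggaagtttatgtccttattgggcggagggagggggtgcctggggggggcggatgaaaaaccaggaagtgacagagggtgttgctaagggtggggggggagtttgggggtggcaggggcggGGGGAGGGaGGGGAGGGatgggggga

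The *Zbtb4* promoter held 0 matches to the word on either strand, 22 CpG dinucleotides and 70.3% G and C. The *Zbtb7b* promoter printed above held 2 matches, 1 base apart, near its 3' end, 8 CpG dinucleotides and 59.7% G and C. A match is a description of the letters, and binding was not measured in these data.

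*Zbtb4* had 149 and 144 reads in WT against 1012 and 726 in *Patz1* KO, which is 9.998 and 9.05 CPM against 41.7 and 43.2 CPM. The genotypes lay far apart, and the 2 libraries of each genotype were close. The means were 9.53 ± 0.669 CPM in WT and 42.5 ± 1.07 CPM in *Patz1* KO (SD, n = 2 each), a log2FC of 2.16 with SE 0.12 (edgeR, adjusted p = 1.93e-10). The 95% interval of the fold went from 3.74 to 5.32. *Zbtb7b* had 58 and 48 reads in WT against 269 and 175 in *Patz1* KO, or 3.89 and 3.02 CPM against 11.1 and 10.4 CPM. It was thus a gene of low level in WT that was higher in both KO libraries. From 3.45 ± 0.618 to 10.8 ± 0.473 CPM (SD, n = 2 each), its log2FC was 1.64 with SE 0.20 (edgeR, adjusted p = 2.92e-06), with an interval of the fold from 2.33 to 4.19. An exon of *Zbtb7b* shares 116 bases with the antisense gene *Gm15417*, which had 21 and 22 reads in WT against 60 and 44 in *Patz1* KO, and the strand setting of the counting is not given in the sources used here. Of the T cell genes, *Cd3e* was at 0 and *Cd4* had 4 and 0 reads in WT against 8 and 3 in *Patz1* KO.

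**Figure D3:**
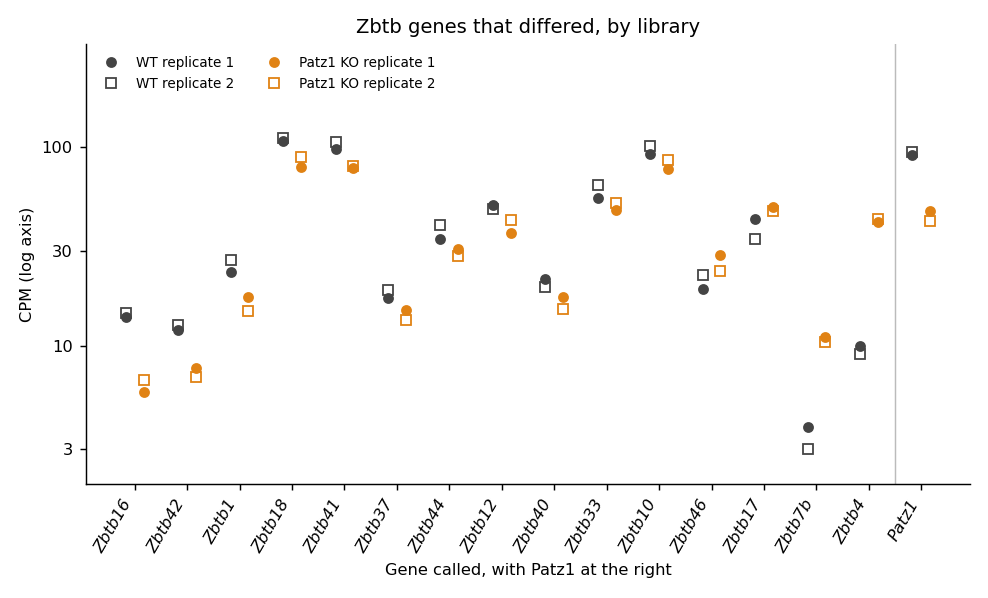
Level of the 15 *Zbtb* genes called, with *Patz1* at the right, in each library (y axis, CPM on a log axis; grey, WT; orange, *Patz1* KO; circles, replicate 1; squares, replicate 2). The *Patz1* KO values of *Zbtb4* (41.7 and 43.2) and *Zbtb7b* (11.1 and 10.4) lie well above WT, and those of *Zbtb16* (5.85 and 6.67) well below it.

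The genes next to *Zbtb4* and *Zbtb7b* did not all move with them. Within 50 kb of *Zbtb4*, the RNA polymerase II subunit gene *Polr2a* was lower (log2FC -0.94, SE 0.091, edgeR adjusted p = 1.94e-07) and the synaptic adhesion gene *Nlgn2* was higher (0.68, SE 0.095). The muscle acetylcholine receptor gene *Chrnb1*, which lies 13 bases from *Zbtb4*, had 14 and 26 reads in WT against 22 and 28 in *Patz1* KO. That is a log2FC of -0.06, which was not called. Of the 9 genes tested within 50 kb of *Zbtb7b*, *Adam15* (0.77) and *Gm15417* (0.86) were higher, *Cks1b* (-0.85) and *Shc1* (-0.77) were lower, and the other 5 were not called. These neighbours were looked at after the values of the members had been seen.

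The smaller rises were in *Zbtb17* and *Zbtb46*. *Zbtb17* encodes MIZ1, a partner of MYC that activates cell cycle inhibitor genes, and *Zbtb46* encodes a factor of classical dendritic cells and endothelium. *Zbtb17* had 43.3 and 34.3 CPM in WT and 49.8 and 47.7 CPM in *Patz1* KO. The WT libraries differed from each other more than the lower KO library differed from the higher WT library. Its log2FC was 0.33 with SE 0.11 (edgeR, adjusted p = 0.0202). *Zbtb46* had 19.3 and 22.6 CPM in WT and 28.5 and 23.8 CPM in *Patz1* KO, so the groups were close to touching. Its log2FC was 0.32 with SE 0.13 (edgeR, adjusted p = 0.0437). DESeq2's Wald test called neither gene, and *Zbtb17* was not called without WT replicate 2 (0.17). *Zbtb46* was not called without WT replicate 1 (0.20), without WT replicate 2 (0.44) or without *Patz1* KO replicate 1 (0.18).

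*Zbtb16*, which encodes PLZF, a factor of stem and progenitor cells, limb patterning and innate-like T cells, fell most. It had 207 and 231 reads in WT against 142 and 112 in *Patz1* KO, although the KO libraries were the deeper ones. In CPM this was 13.9 and 14.5 against 5.85 and 6.67, with no overlap. From 14.2 ± 0.446 to 6.26 ± 0.577 CPM (SD, n = 2 each), its log2FC was -1.19 with SE 0.16 (edgeR, adjusted p = 1.04e-05), and the 95% interval of log2FC went from -1.53 to -0.85. No other gene tested lay within 50 kb of it.

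*Zbtb42* and *Zbtb1* followed. *Zbtb42*, a close relative of *Zbtb18* known from skeletal muscle, had 12.01 and 12.7 CPM in WT and 7.67 and 6.97 CPM in *Patz1* KO. Its log2FC was -0.75 with SE 0.16 (edgeR, adjusted p = 0.000918). *Zbtb1*, which is needed for lymphocyte development, had 23.4 and 27.0 CPM in WT and 17.6 and 14.9 CPM in *Patz1* KO. Its log2FC was -0.63 with SE 0.13 (edgeR, adjusted p = 0.000657). Neither gene overlapped between genotypes. *Zbtb25*, which starts 664 bases from *Zbtb1* and points away from it, had 9.19 and 8.67 CPM in WT and 8.33 and 8.28 CPM in *Patz1* KO. Its log2FC of -0.10 was not called, with a 95% interval from -0.46 to 0.25.

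The 8 other members that were lower fell by 1.18-fold to 1.30-fold. *Zbtb18* encodes RP58, a repressor needed for neuronal differentiation in the cortex. It had 108 and 111 CPM in WT and 79.5 and 89.5 CPM in *Patz1* KO, and its log2FC was -0.38 with SE 0.091 (edgeR, adjusted p = 0.00241). *Zbtb41* had 97.3 and 106 CPM in WT and 78.3 and 80.1 CPM in *Patz1* KO, its log2FC being -0.36 with SE 0.090 (edgeR, adjusted p = 0.00287). Neither gene overlapped between genotypes. *Zbtb33*, the gene of Kaiso, which binds methylated CpG as *Zbtb4* does, had 55.6 and 64.2 CPM in WT and 47.9 and 52.0 CPM in *Patz1* KO, a log2FC of -0.26. The remaining 5 were *Zbtb37* (-0.35), *Zbtb44* (-0.35), *Zbtb12* (-0.33), *Zbtb40* (-0.32) and *Zbtb10* (-0.24), with adjusted p from 0.0132 for *Zbtb12* to 0.0496 for *Zbtb40* in edgeR's test. Each of these 5, *Zbtb33* and *Zbtb41* lost its call in at least 1 fit that left out a library. Without WT replicate 1 these were *Zbtb37* (-0.43), *Zbtb12* (-0.31), *Zbtb40* (-0.26) and *Zbtb10* (-0.31), and without WT replicate 2 they were *Zbtb41* (-0.30), *Zbtb37* (-0.28), *Zbtb44* (-0.22), *Zbtb12* (-0.36), *Zbtb40* (-0.39), *Zbtb33* (-0.16) and *Zbtb10* (-0.18). Without *Patz1* KO replicate 1 they were *Zbtb12* (-0.22), *Zbtb33* (-0.20) and *Zbtb10* (-0.17), and without *Patz1* KO replicate 2 they were *Zbtb37* (-0.27) and *Zbtb40* (-0.21). DESeq2's Wald test called 7 members in all, *Zbtb4*, *Zbtb7b*, *Zbtb16*, *Zbtb42*, *Zbtb1*, *Zbtb18* and *Zbtb41*. *Zbtb37* shares 2942 exonic bases with *Serpinc1* on the other strand, *Zbtb33* shares 474 with *Tmem255a* and *Zbtb12* shares 161 with *C2*, so their counts are uncertain if strand was not used.

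The 23 members that were not called split into 10 above 0 and 13 below 0. For all 23 the 95% interval of the fold lay within 2-fold in either direction, and for 19 of them it lay within 1.5-fold. The 4 whose interval reached past 1.5-fold were *Zbtb8b* (up to 1.73), *Zbtb45* (1.59), *Zbtb7a* (1.57) and *Zbtb48* (1.502), all on the higher side. *Zbtb45*, a factor of glial differentiation, had 16.4 and 12.3 CPM in WT and 19.5 and 16.7 CPM in *Patz1* KO, a log2FC of 0.35 with SE 0.15 (edgeR, adjusted p = 0.0631). *Zbtb8b* had 4.70 and 4.90 CPM in WT and 6.64 and 5.54 CPM in *Patz1* KO, while its neighbour *Zbtb8a* had 11.4 and 8.93 CPM against 8.74 and 9.47 CPM. The value of *Zbtb48*, which encodes a telomere-binding protein, rested on 1 library. It had 9.53 and 7.86 CPM in WT and 11.8 and 7.27 CPM in *Patz1* KO, and its log2FC of 0.15 became -0.25 without *Patz1* KO replicate 1 and 0.45 without *Patz1* KO replicate 2. In that last fit *Zbtb48* was called, and so were *Zbtb5* (0.39), *Zbtb6* (-0.32), *Zbtb43* (0.31) and *Zbtb45* (0.46), and *Zbtb45* was also called without WT replicate 1 (0.56).

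Several well-known members were among those not called. *Zbtb38*, the other relative of Kaiso that binds methylated CpG, had 12.1 and 11.4 CPM in WT and 11.4 and 10.1 CPM in *Patz1* KO, with an interval of log2FC from -0.44 to 0.20. *Zbtb24*, mutated in a syndrome of lost DNA methylation at centromeric repeats, had 17.5 and 18.0 CPM in WT and 18.4 and 16.7 CPM in *Patz1* KO, with an interval from -0.28 to 0.26. *Zbtb20*, known from hippocampus, astrocytes and liver, had 6.58 and 6.29 CPM in WT and 6.47 and 5.60 CPM in *Patz1* KO. The groups overlapped in *Zbtb24* and *Zbtb20*, while the higher KO library of *Zbtb38* lay just under the lower WT library. The rest were *Zbtb2* (log2FC -0.21), *Zbtb3* (0.11), *Zbtb5* (0.23), *Zbtb6* (-0.22), *Zbtb9* (0.04), *Zbtb11* (-0.21), *Zbtb14* (-0.11), *Zbtb21* (-0.09), *Zbtb22* (0.10), *Zbtb26* (-0.23), *Zbtb34* (-0.04), *Zbtb39* (-0.15), *Zbtb43* (0.16) and *Zbtb49* (0.10). The intervals of *Zbtb5*, *Zbtb6*, *Zbtb26* and *Zbtb45* did not reach 0, but none of these 4 passed the adjustment over all genes (adjusted p from 0.0631 to 0.0824 in edgeR). *Zbtb32*, a repressor of lymphocytes, was the member with too few counts to be tested, with 2 and 7 in WT and 15 and 3 in *Patz1* KO.

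Levels were compared between genes per kilobase of annotated exon. Over the 4 libraries the mean went from 0.203 CPM per kilobase for *Zbtb20* to 22.2 for *Zbtb12*, with a median of 3.61 over the 38 members. *Zbtb12* was followed by *Zbtb22* (16.0), *Zbtb18* (15.8), *Zbtb5* (14.7) and *Zbtb6* (14.6). *Zbtb12* had 25.1 and 24.2 CPM per kilobase in WT and 18.2 and 21.2 in *Patz1* KO, above each of the others in the same library. The order of the other 4 differed between genotypes. In WT *Zbtb18* had 17.5 and 18.1 CPM per kilobase, *Zbtb6* 15.4 and 16.0, *Zbtb22* 16.4 and 14.6 and *Zbtb5* 13.4 and 13.7, so *Zbtb18* lay above the other 3 and *Zbtb5* below them, while *Zbtb6* and *Zbtb22* overlapped. In *Patz1* KO the ranges of neighbours in the order overlapped, with 17.9 and 15.2 for *Zbtb22*, 17.6 and 13.96 for *Zbtb5*, 12.9 and 14.6 for *Zbtb18* and 12.5 and 14.6 for *Zbtb6*. Of these 5 members, 2 were called, *Zbtb12* and *Zbtb18*, and both were lower. *Zbtb4* went from 1.17 to 5.23 CPM per kilobase and *Zbtb7b* from 0.618 to 1.92, so neither reached the level of the top 5. *Patz1* stood at 15.7 CPM per kilobase in WT and 7.63 in *Patz1* KO. Summed over the 38 members, the family had 1205 and 1230 CPM in WT and 1155 and 1133 CPM in *Patz1* KO. Without *Zbtb4*, *Zbtb7b* and *Zbtb16* the sums were 1177 and 1203 CPM in WT and 1096 and 1073 CPM in *Patz1* KO.

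**Figure D4:**
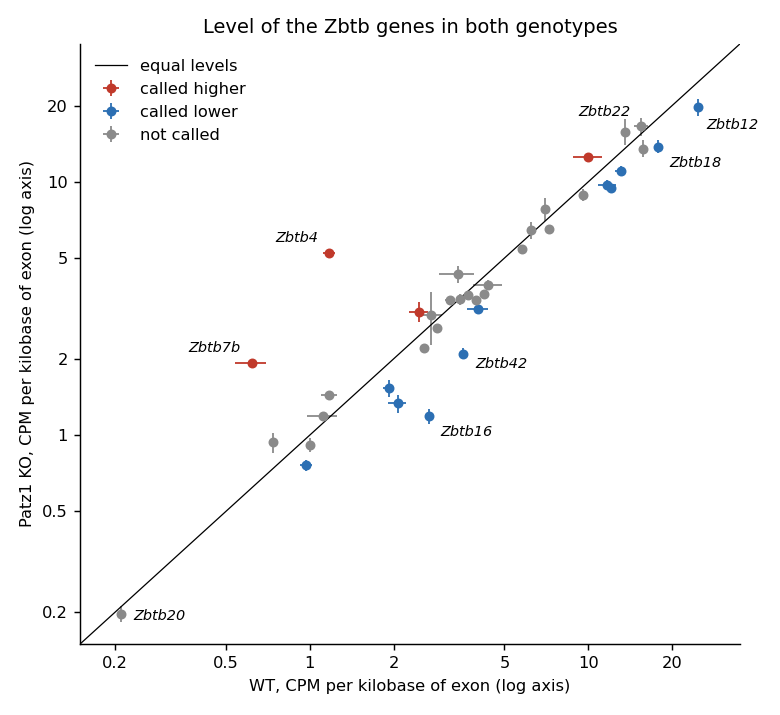
Mean level of each of the 38 *Zbtb* genes in WT (x axis) and *Patz1* KO (y axis), in CPM per kilobase of exon on log axes, with bars from the lower to the higher library and colours by call. Most genes follow the line of equal levels from *Zbtb20* at 0.209 and 0.196 to *Zbtb12* at 24.7 and 19.7, while *Zbtb4* (1.17 and 5.23) and *Zbtb7b* (0.618 and 1.92) lie above it.

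The BTB regions of the members were set beside that of PATZ1. Each protein, translated from the longest coding sequence of the gene in GENCODE M21, was aligned to the first 150 residues of PATZ1 and ordered by the local alignment score. The 5 closest were *Zbtb7b* (48 of 119 aligned residues identical, 40.3%), *Zbtb44* (43 of 111, 38.7%), *Zbtb4* (45 of 105, 42.9%), *Zbtb7a* (38 of 104, 36.5%) and *Zbtb48* (42 of 103, 40.8%). Both members that rose several-fold were thus among the 5 closest by this score, and the 5 did not share a direction. *Zbtb44* fell, from 34.4 and 40.7 CPM to 30.6 and 28.3 CPM. *Zbtb7a*, the gene of LRF and a close relative of *Zbtb7b*, had 8.52 and 7.48 CPM in WT and 10.02 and 9.65 CPM in *Patz1* KO. Its log2FC was 0.30 with SE 0.17, which was not called (edgeR, adjusted p = 0.152). *Zbtb22* had a higher identity, 55.8%, but over 43 residues. By identity *Zbtb7b* also stood below members with alignments of like length. Among these were *Zbtb1* (41.8% of 98 residues) and *Zbtb37* (41.1% of 107), which were lower. Others were *Zbtb38* (41.4% of 99), which was not called, and *Zbtb17* (40.6% of 101), which was higher. The number of matches to a C2H2 zinc finger pattern was 7 in PATZ1, 3 in the product of *Zbtb7b*, 5 in that of *Zbtb4* and 9 in that of *Zbtb16*. The study gives PATZ1 fewer zinc fingers than this, so matches to the pattern are not a count of fingers. The likeness between BTB regions is a description of sequences, and the order of the members moves if identity is used in place of the score.

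**Figure D5:**
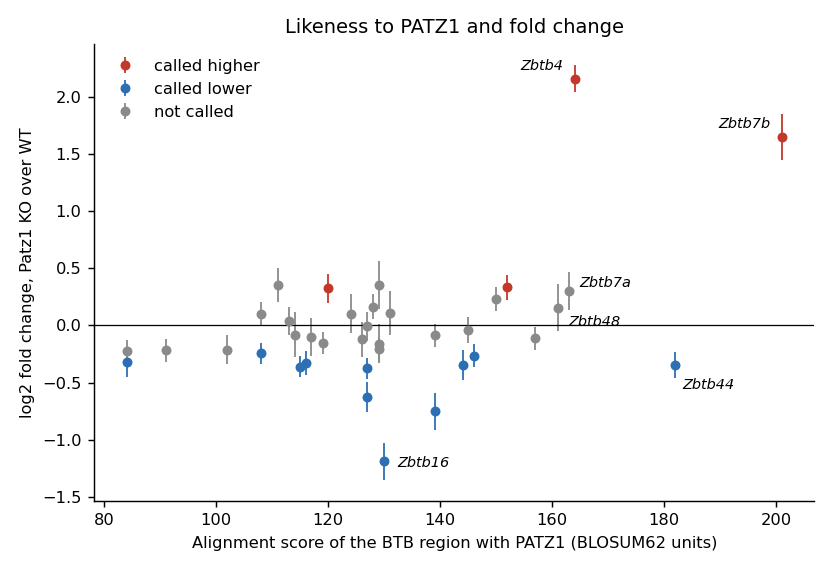
Log2FC, *Patz1* KO over WT, with its SE (y axis) against the BLOSUM62 alignment score of the BTB region with that of PATZ1 (x axis) for the 38 members, coloured by call. *Zbtb7b* with a score of 201 and *Zbtb4* with 164 are high on both axes, while *Zbtb44* with 182 lies below 0.

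Promoters were at hand for 34 of the 38 members tested. The word GGGGAGGG or its reverse complement CCCTCCCC was in at least 1 promoter of 9 of them (26.5%), against 3242 of 27025 genes with a promoter in the reference (11.996%). The reference genes were not matched to the members by counts or by G and C content, so these shares do not show an excess particular to the family. Among the called members with a promoter, 3 of 12 held it (*Zbtb7b*, *Zbtb37* and *Zbtb12*), of which the first was higher and the others were lower. Among those not called it was in 6 of 22, *Zbtb2*, *Zbtb7a*, *Zbtb9*, *Zbtb11*, *Zbtb14* and *Zbtb26*. The word thus stood in promoters of members that were higher, lower and not called.

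Some members share sequence or position with another gene. *Zbtb9* shares 2938 of its 3482 exonic bases with *Ggnbp1* on the same strand, so reads of these genes cannot be told apart there, and its log2FC of 0.04 is uncertain. *Zbtb6* and *Zbtb26* overlap on the same strand by 449 bases, and their log2FCs were -0.22 and -0.23. *Zbtb34* (-0.04) and *Zbtb43* (0.16), 18963 bases apart on chromosome 2, were not called. *Zbtb17* shares 41 exonic bases with *Spen* on the other strand and *Zbtb22* shares 149 with *Tapbp* on the same strand.

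The genes around the family were read from lists, against the 24.0% of all genes that were higher and the 23.4% that were lower. Of 8 BTB zinc finger genes that go by another symbol, *Zfp651* was higher (log2FC 0.61, adjusted p = 0.000853 from edgeR's test) and *Hic1*, a tumour suppressor and repressor, was lower (-2.69, SE 0.25, adjusted p = 1.28e-07 from edgeR's test). *Hic1* had 117 and 121 reads in WT against 29 and 20 in *Patz1* KO, a larger fall than that of any *Zbtb* gene tested. *Gzf1*, the third by p, was at 0.25 and was not called (edgeR, adjusted p = 0.051), and the median of the 8 was -0.04. The count of higher genes was 2 with the replicate block, without a filter and with TMM without the 20 most counted genes. It was 0 with glmTreat, which called 12.8% of all genes, and it moved when a *Patz1* KO library was left out. Of 23 co-repressors and partners of BTB domains, 3 were higher and 5 lower, with a median of -0.07. Both counts moved when a library was left out. With glmTreat at 1.5-fold, which called 12.8% of all genes, none of the 23 was called (0 higher, 0 lower). The class IIa deacetylase gene *Hdac5* was higher at 0.71, and the deacetylase gene *Hdac1* (-0.39) and its complex partner *Mta1* (-0.55) were lower. Of the co-repressors that bind BTB domains directly, *Bcor* was higher at 0.33, while *Ncor1* (-0.21) was not called.

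Of 8 textbook targets of *Zbtb* proteins, 1 was higher and 3 were lower, where 24.0% and 23.4% of all genes were. The count of higher targets was 2 with the replicate block, which called 50.9% of all genes, and 0 with glmTreat, which called 12.8%. It moved when *Patz1* KO replicate 1 was left out. *Cdkn1a*, the p21 gene that MIZ1 acts on, was higher (log2FC 0.69). It had 27.8 and 24.0 CPM in WT against 33.4 and 50.8 CPM in *Patz1* KO, so the KO libraries differed and the second was much the higher. *Cdkn2b*, another target of MIZ1, was at 0.06 and was not called. *Cdca7*, a target of the *Zbtb24* product, was lower at -0.64, although *Zbtb24* itself was at -0.01. Of the *Id* genes, which RP58 represses, *Id3* (-1.62) and *Id1* (-1.04) were lower, and *Id2* (0.03) and *Id4* (0.21) were not called. *Afp*, which the product of *Zbtb20* represses in liver, had 11 to 21 counts per library and was not called. Direct action of any *Zbtb* protein on these genes was not measured.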

How the data were processed

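RNA-seq counts of 2 WT and 2 *Patz1* KO cervical MN libraries were used. The deposited values are raw counts per gene symbol, made by the authors from stranded total RNA libraries after ribosomal RNA removal, with reads mapped to mm10. The submitters' processing notes name TopHat2 2.1.1, Bowtie2 2.3.1, featureCounts 1.6.2 and DESeq2, with no roles. The annotation and the strand setting of the counting are not given in the sources used here. Groups were taken from the genotype labels. Per the study's methods, biological replicates of MNs are separate rounds of differentiation. The test thus sets the genotype difference against the spread between such rounds, estimated from 2 libraries per genotype and moderated over genes. The KO line or lines are not named, so a difference between lines cannot be told apart from one between genotypes.

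All genes with at least 10 counts in at least 2 libraries (14394) entered TMM normalization and edgeR's quasi-likelihood test (edgeR 4.0.16, limma 3.58.1, R 4.3.3), with Benjamini-Hochberg adjustment over all of them and calls at an adjusted p below 0.05. SEs were derived from log2FC and the F statistic, and 95% intervals use the moderated t distribution. The common biological coefficient of variation was 7.71%. Every tested member had at least 48 counts in every library, so the filter did not choose members by genotype. With 2 libraries against 2, an exact permutation test cannot go below p = 0.333, and none was run. Replicates differed by more than sampling noise, with a chi-square per degree of freedom of 10.3 between the WT and 22.9 between the *Patz1* KO libraries.

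The members and the gene lists were chosen with earlier results of these data known. The genes named are *Patz1*, up to 10 called members with the largest rise and 10 with the largest fall, the 5 members highest per kilobase, the 5 closest to PATZ1 by BTB region, members with too few counts, and the 3 genes of each list with the smallest p. Other members are named to account for all, and other genes beside them were chosen after their values were seen. Gene positions, exon overlaps and coding sequences came from GENCODE M21 on GRCm38, in which all 39 members were matched by symbol, and promoters from RefSeq on GRCm38.p6. Proteins were aligned with Biopython 1.88 (BLOSUM62, gap opening 11, extension 1). The G-rich word was searched on both strands, with its reverse complement corrected after the design had been written with other letters. The steps were also run on simulated counts, in which far fewer genes changed than were called here, so that run does not give the error rates in these data. Alternatives were DESeq2's size factors, total counts, TMM without the 20 most counted genes, other filters, a replicate block, DESeq2's Wald test (DESeq2 1.42.0), glmTreat at 1.5-fold, thinning to the smallest library and leaving out each library. Other data of the study were not analysed here.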

Additional observations from a re-analysis of the deposited data

How the results depend on the processing

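*Zbtb4*, *Zbtb7b* and *Zbtb16* were called in the same direction under all 14 alternatives, with log2FCs of 2.08 to 2.22, 1.46 to 1.82 and -1.27 to -1.09. The number of members called was 15 of 38 (4 higher, 11 lower), where 47.4% of all genes were called. It was 7 with DESeq2's Wald test (2 higher, 5 lower), in which 33.2% of all genes were called. With glmTreat at a minimum of 1.5-fold it was 3 (2 higher, 1 lower), where 12.8% of all genes were called (1846 in place of 6822). Leaving out each library in turn gave 6 to 18 members (2 to 8 higher, 4 to 10 lower), fewest without WT replicate 2 (6, with 4369 genes called in all) and most without *Patz1* KO replicate 2 (18). There, the lone library of a genotype was assumed to vary as the pair of the other did. Of the members that were not called, 8 changed sign when a library was left out, with ranges of -0.25 to 0.45 for *Zbtb48*, -0.025 to 0.22 for *Zbtb22*, -0.33 to 0.014 for *Zbtb8a*, -0.081 to 0.065 for *Zbtb24*, -0.073 to 0.28 for *Zbtb49*, -0.083 to 0.012 for *Zbtb34*, -0.20 to 0.021 for *Zbtb20* and -0.056 to 0.15 for *Zbtb9*. *Zbtb24* was at 0.013 without a filter on low counts. The cause of these shifts was not tested. Same-numbered libraries did not deviate together (r = 0.0053 over genes). This value cannot show whether they came from the same round of differentiation, so pairing by number is left unknown. The fit with the replicate block called 19 members, and in it 50.9% of all genes were called. Over all alternatives the median log2FC of the family stayed between -0.14 and -0.08. SEs went from 0.090 for *Zbtb41* to 0.21 for *Zbtb8b*, a member with few counts, in which smaller differences were not detectable at this depth.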

Other observations

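Symbols that begin with *Zbtb* but are not matched by the rule on symbols had their own values. *Zbtb7c*, a relative of *Zbtb7a* and *Zbtb7b*, had 391 and 371 reads in WT against 735 and 382 in *Patz1* KO, a log2FC of 0.11 that was not called (adjusted p = 0.525 in edgeR's quasi-likelihood test). *Zbtb8os*, which shares 264 exonic bases with *Zbtb8a* on the other strand, was at -0.16 and was not called. *Zbtbd6* had 68 and 69 reads in WT against 50 and 38 in *Patz1* KO, a log2FC of -1.05 with SE 0.26 (edgeR, adjusted p = 0.00261).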
